A study of Homo sapiens with 2 samples.

Results

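MYC and PVT1 are neighbouring genes on the long arm of human chromosome 8, and their placement in chromosome domains was read from a Hi-C study of the established human liver cancer line HepG2. Hi-C sequences pairs of DNA fragments that lie near each other in the nucleus, and from such contacts a chromosome is divided into topologically associating domains, within which contacts are more frequent than across their edges. The mock group received DMSO (1 volume in 1000), and PA+OA cells received palmitic acid at 120 µM with oleic acid at 240 µM, both for 48 h. The labels place fatty acid-free BSA at 1% in the treatment medium and leave unclear whether the mock medium held it too. Both groups were cells of the same line, and each group had 1 library, so the values below describe 2 libraries, with no replicate check and no test of the treatment. The genes were chosen by name, the 2 of them among 59098 gene records, together with all domains that overlapped the stretch from 126 to 130 Mb of chromosome 8. These were 6 of 2679 mock entries and 7 of 2524 PA+OA entries. The deposited lists hold positions alone, so neither the depth of the libraries nor the strength of a boundary is known, and the cell line could not be checked against marker genes.

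MYC encodes a transcription factor that drives cell growth and division and is a proto-oncogene in many cancers, that of the liver included. PVT1 is a long noncoding RNA gene that is often gained together with MYC in tumours, and its promoter is known to compete with that of MYC for enhancers in some cells. MYC has few coding neighbours and is instead flanked by long stretches of noncoding RNA genes and enhancers, which act in different tissues. On the side before MYC lie the transcripts named for colon and prostate cancer, such as CCAT1, CCAT2 and PCAT1, and on the side after it lie PVT1 and, much farther away, CCDC26, around which enhancers act on MYC in blood cells. A domain boundary is the place where contacts between such elements and a promoter become less frequent.

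A boundary was listed between MYC and PVT1 at the same position, 127760000 on hg38, in mock and PA+OA alike. MYC (gene 4609, protein-coding) ran from 127735434 to 127742951 in the RefSeq record, and PVT1 (gene 5820, long noncoding RNA) ran from 127794524 to 128101256. The boundary lay 17.0 kb past the end of MYC and 34.5 kb before the start of PVT1, in a gap of 51.6 kb without another gene record. It was the only boundary that either list held from 200 kb before MYC to 200 kb past PVT1. The whole MYC record and the start of PVT1 thus fell into separate domains in both libraries, and the 9 bins of 40 kb that the PVT1 record touched all lay on its own side.

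The position is given to 1 bin of 40 kb, since all listed edges are multiples of that step. MYC lay wholly in the last bin before the boundary, from 127720001 to 127760000, and PVT1 started in the next, from 127760001 to 127800000. An edge set 1 bin earlier, at 127720000, would lie 15.4 kb before MYC and would put both genes on 1 side. An edge set 1 bin later, at 127800000, would lie 5.48 kb inside PVT1, with MYC still apart. The order of boundary and MYC is therefore closer than the lists resolve, although the listed bin was the same in both.

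Few neighbouring genes had such a boundary between them. Among all 33054 pairs of neighbouring gene records with a gap of at most 100 kb, a boundary of both lists lay in the gap for 443 pairs (1.34%, Wilson 95% interval 1.22 to 1.47%, which covers counting error only, as do all intervals here). A longer gap has more room for a boundary, and the share was 3.41% (86 of 2524) for gaps of 40 to 60 kb, which is nearest to the pair of MYC and PVT1. For pairs of a coding gene and a long noncoding RNA gene, again with any gap of at most 100 kb, the share was 1.39% (96 of 6925). That share is not matched to the gap of MYC and PVT1. In each of the 86 pairs with a gap of 40 to 60 kb, as in MYC and PVT1, both lists had the boundary at the same position. Such gaps leave little room for edges in steps of 40 kb to differ, and that of MYC and PVT1 holds no other such step. The equal position therefore adds nothing to the presence of a boundary in both lists.

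MYC also lay nearer to a boundary than most coding genes did. A mock boundary lay as near as 17.0 kb, or inside the gene, for 2345 of 19974 protein-coding genes (11.7%), and a PA+OA boundary for 2249 (11.3%). That distance is finer than the bins of 40 kb. Within 1 bin, the shares were 17.5% (3493 genes) for mock boundaries and 17.0% (3387 genes) for PA+OA boundaries. The median coding gene was 267 kb from a mock boundary and 284 kb from a PA+OA boundary. For 11076 coding genes (55.5%), MYC among them, the nearest boundary had the same position in both lists.

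The domain of MYC was the same with and without the fatty acids. It ran from 127200001 to 127760000 in both lists, a length of 560 kb, and MYC lay at its very end. A domain with equal edges in both lists held 6659 of all 19974 protein-coding genes (33.3%), so this placement was shared by many genes, and it was near the share of 32.9% on chromosome 8 (235 of 715). Besides MYC, the domain held 7 gene records in each list, and they were the same 7. All of them lay before MYC. CASC11, a noncoding RNA gene that starts close to the MYC promoter, was 1.47 kb away. CASC8 and CASC21, noncoding RNA genes of the cancer susceptibility region, were 253 and 343 kb away. CCAT2, a transcript named for its level in colon cancer, was 333 kb away. POU5F1B, a coding retrogene related to the pluripotency factor POU5F1, was 318 kb away, and CCAT1, the farthest, was 516 kb away. The remaining record was the noncoding LOC105375754.

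The edge at the far end of this domain separated noncoding genes that stand close together. It was listed at 127200000 in both lists, 7.38 kb before CCAT1 and 2.37 kb past CASC19, another noncoding RNA gene of the same region. CCAT1 shared the domain of MYC, and CASC19 did not. Both distances are below 1 bin, so the side on which CCAT1 and CASC19 fall follows from the listed edge and is finer than the lists resolve.

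The domains before MYC were alike in both lists. From 126840001 to 127200000, a domain of 360 kb held PCAT1, PCAT2, PRNCR1 and CASC19, noncoding RNA genes named for prostate cancer and cancer susceptibility, and no coding gene. From 126280001 to 126840000, a domain of 560 kb held LRATD2 as its only coding gene, 1177 kb from MYC. From 125080001 to 126280000, a domain of 1200 kb held NSMCE2, which encodes a SUMO ligase of a DNA repair complex, and TRIB1, which encodes a pseudokinase that restrains lipid synthesis in the liver. All 3 domains had the same edges in mock as in PA+OA. Just outside the described stretch, the domain from 124480001 to 125080000 with SQLE, the squalene epoxidase gene of cholesterol synthesis, was also the same at 600 kb. The boundary at 125080000 lay inside WASHC5, which encodes a subunit of the WASH complex of endosomes, in both lists.

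**Figure D1:**
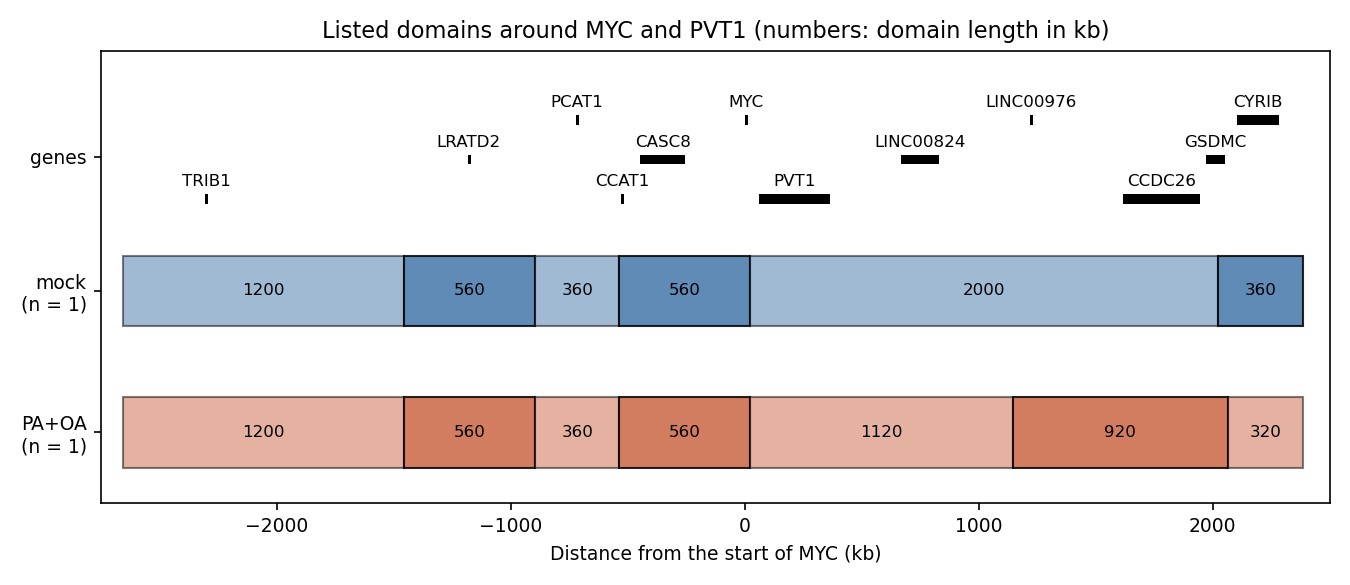
Domains listed around MYC and PVT1 in the mock library (upper bar) and the PA+OA library (lower bar), drawn by distance from the start of MYC in kb, with the length of each domain in kb written inside and shades alternating between neighbours. Black marks at the top are RefSeq gene records. The 4 domains up to the end of the MYC domain are equal in both bars, and the mock domain of 2000 kb after MYC is replaced by domains of 1120 and 920 kb in PA+OA.

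The domain of PVT1 differed between the lists. In the mock list it ran from 127760001 to 129760000, a length of 2000 kb. In the PA+OA list it ran from 127760001 to 128880000, a length of 1120 kb, and a second domain of 920 kb followed from 128880001 to 129800000. A boundary at 128880000 was thus listed in PA+OA alone. The mock domain was 1 of 179 (6.68% of 2679 mock entries) whose edges were both matched within 1 bin and which the PA+OA list divided further. Such divided domains held 15.5% of all protein-coding genes (3093 of 19974). Divided domains were long, with a median of 1720 kb against 640 kb for all mock domains above zero length. As long as that of PVT1 or longer were 72 of the 179, while 85.9% of the 2543 mock domains above zero length measured at most 2000 kb. The 6.68% counts entries of every length, zero included, so it is too low as a measure for domains as long as this one. A single added boundary, as here, divided 137 of them (76.5%), and 9 of the 179 lay on chromosome 8.

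The divided domain was poor in coding genes. It held 23 gene records, of which GSDMC, a gene of the gasdermin family of pore-forming proteins, was the only coding one. That gives 0.5 coding genes per Mb, against a median of 6.25 per Mb in the 179 divided domains, and 17 of the 179 held 1 coding gene or none.

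The added boundary kept PVT1 with its near neighbours and set it apart from the distant ones. Of the 22 other records in the mock domain of PVT1, 12 stayed in its PA+OA domain and 10 lay in the next, and no record joined. Those that stayed with PVT1 included MIR1204, MIR1205, MIR1206 and MIR1207, microRNA genes inside the PVT1 record, and MIR1208, 48.9 kb past its end. They also included LINC02912, a noncoding gene formerly named TMEM75 that lies inside the PVT1 record, and LINC00824, 304 kb past PVT1. Those on the other side included LINC00976 at 852 kb from PVT1, LINC00977 at 1115 kb, CCDC26 at 1250 kb, the microRNA gene MIR3686 and GSDMC at 1604 kb. PVT1 lay with no coding gene in its PA+OA domain by the middle of the gene records.

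The boundary at 128880000 lay between genes and far from PVT1. It was 779 kb past the end of PVT1 and 1145 kb past the start of MYC, with 56% of the mock domain before it. The nearest gene records were LOC124902021, which ended 69.4 kb before it, and LINC00976, which began 72.9 kb after it, so no gene record was cut and no gene lay within 1 bin. The nearest mock boundary was 880 kb or 22 bins away, at the end of the mock domain. Of 598 PA+OA boundaries that had no mock boundary within 1 bin, 101 (16.9%) were as far from the mock list as this or farther, and their median distance was 320 kb.

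The outer end of the region was listed 1 bin apart. In the mock list the boundary stood at 129760000, inside the GSDMC record, which ran from 129705435 to 129786624. In the PA+OA list it stood at 129800000, 13.4 kb past the end of GSDMC and 39.6 kb before CYRIB, which encodes an inhibitor of RAC1 signalling. The next domain, with CYRIB as its only coding gene, measured 360 kb in mock and 320 kb in PA+OA and ended at 130120000 in both, inside ASAP1, a gene of membrane and actin traffic. Whether GSDMC was crossed by the boundary differed between the lists by a single bin. Just outside the stretch, the domain from 130120001 to 132000000 was equal in both lists at 1880 kb.

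For MYC itself, the number of boundaries on the way to each neighbour changed on the far PVT1 side alone. It was counted between gene middles for 29 other genes of the locus, of which 27 came from a list and LINC00976 and MIR3686 were added after their places were seen. For 22 of the 29 the number was equal in both lists, for 7 it was 1 higher in PA+OA, and for none was it lower. CCAT1, CASC21, CASC8, CCAT2, POU5F1B and CASC11 had no boundary between them and MYC in either list. PCAT1, PCAT2, PRNCR1 and CASC19 had 1 in both, LRATD2 had 2 in both, TRIB1 and NSMCE2 had 3 in both, and SQLE and WASHC5 had 4 in both. On the other side, PVT1, MIR1204 and LINC00824 had 1 in both, while LINC00976, LINC00977, CCDC26, MIR3686 and GSDMC had 1 in the mock list and 2 in PA+OA. CYRIB had 2 and 3, and ASAP1 had 3 and 4. These 7 differences all came from the single boundary at 128880000, so they are 1 observation and not 7.

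**Figure D2:**
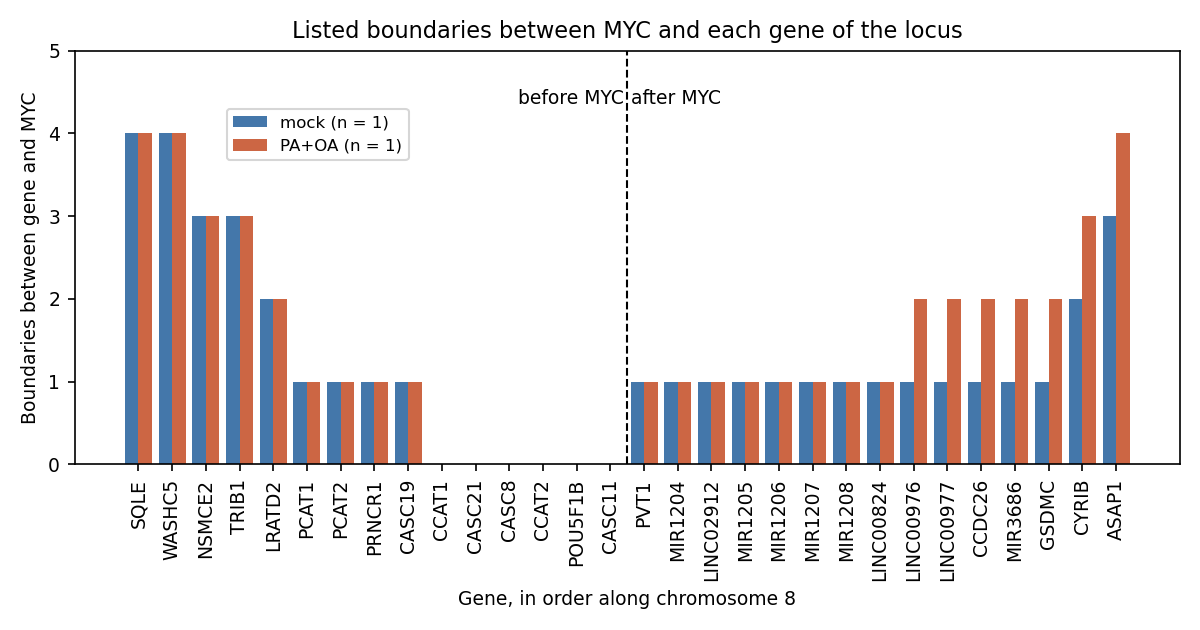
Number of listed boundaries between MYC and each gene of the locus, counted between gene middles, in the mock library (blue) and the PA+OA library (orange), with genes in order along the chromosome and a dashed line at MYC. Genes without bars have 0 boundaries in both lists. From LINC00976 to ASAP1 the PA+OA bar is 1 higher, and for all other genes the bars are equal.

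The same counts from PVT1 gave the same split. It follows from the boundary at 128880000, which lies past MYC and PVT1 alike, and is not a further observation. Of 24 genes of the locus that do not overlap PVT1, 17 had equal numbers and 7 had 1 more boundary in PA+OA. CCDC26 and GSDMC had 0 boundaries between them and PVT1 in the mock list and 1 in PA+OA. MYC had 1 in both.

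Boundaries of the stretch from 126 to 130 Mb were mostly at equal positions. The mock list had 5 boundaries there. PA+OA had a boundary in the same bin for 4 of them, against 62.6% of all 2519 mock boundaries, and within 1 bin for all 5, against 71.3%. The PA+OA list had 6 boundaries. Mock had a boundary in the same bin for 4 of them, against 65.6% of all 2396, and within 1 bin for 5, against 75.0%. The intervals are wide with so few boundaries, 56.6 to 100% for 5 of 5 and 43.6 to 97.0% for 5 of 6, and they hold the shares of the rest of chromosome 8, which were 70.7% of 184 mock and 73.6% of 178 PA+OA boundaries. A difference from the rest of the chromosome was thus not detectable with so few boundaries. Of the 6 mock domains that overlapped the stretch, 4 had equal edges in the PA+OA list, against 36.6% of all mock entries. Of the 7 PA+OA domains, 4 had equal edges in the mock list, against 38.9%.

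The MYC side was part of a longer run of equal boundaries. Counted in order along the chromosome, the 6 boundaries from 124480000 to 127760000 stood at equal positions in both lists, with no boundary of either list alone among them, and enclosed 5 domains over 3280 kb from the domain of SQLE to that of MYC. The genome held 659 such runs with a median of 2 boundaries, of which 46 (6.98%) had 6 or more. Counted by boundaries, runs of 6 or more held 21.6% of the 1602 that stood at equal positions. The longest had 13. The run ended at the boundary between MYC and PVT1, and the next began at 130120000, inside ASAP1.

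Compared with the median of other stretches of 4 Mb, this one had more boundaries and fewer coding genes, with the mock boundaries at the upper quartile. In 741 windows of that length laid end to end over all chromosomes and not overlapping it, the median was 3 boundaries in each list, with quartiles at 2 and 5 in the mock list and at 1 and 5 in PA+OA, against 5 and 6 here. The window held 5 coding genes, which were LRATD2, POU5F1B, MYC, GSDMC and CYRIB. The median window held 18, and 92 windows (12.4%) held 5 or fewer. All mock boundaries were matched within 1 bin in 243 of 644 windows that had any (37.7%), and in 48 of these 243 there were at least 5 such boundaries. PA+OA had more boundaries than mock in 193 windows (26.0%), as it did here, fewer in 248 and as many in 300.

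The MYC domain was of ordinary length and the mock domain of PVT1 was long. The median of all domains above zero length was 640 kb in each list. At 560 kb, the domain of MYC was as long as or longer than 45.8% of the 2543 mock domains and 45.8% of the 2416 PA+OA domains. The mock domain of PVT1, at 2000 kb, reached 85.9%. Its PA+OA domain of 1120 kb reached 71.3%, and the PA+OA domain of CCDC26, at 920 kb, reached 64.7%. Seen by genes and not by domains, that of MYC was short, since long domains hold more genes. The domain of the median coding gene measured 1480 kb in mock and 1560 kb in PA+OA, and 19.9% and 18.9% of the coding genes placed in a domain lay in 560 kb or less. The stretch held no entry of zero length in either list, while chromosome 8 had 16 in the mock list and 10 in PA+OA.

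**Figure D3:**
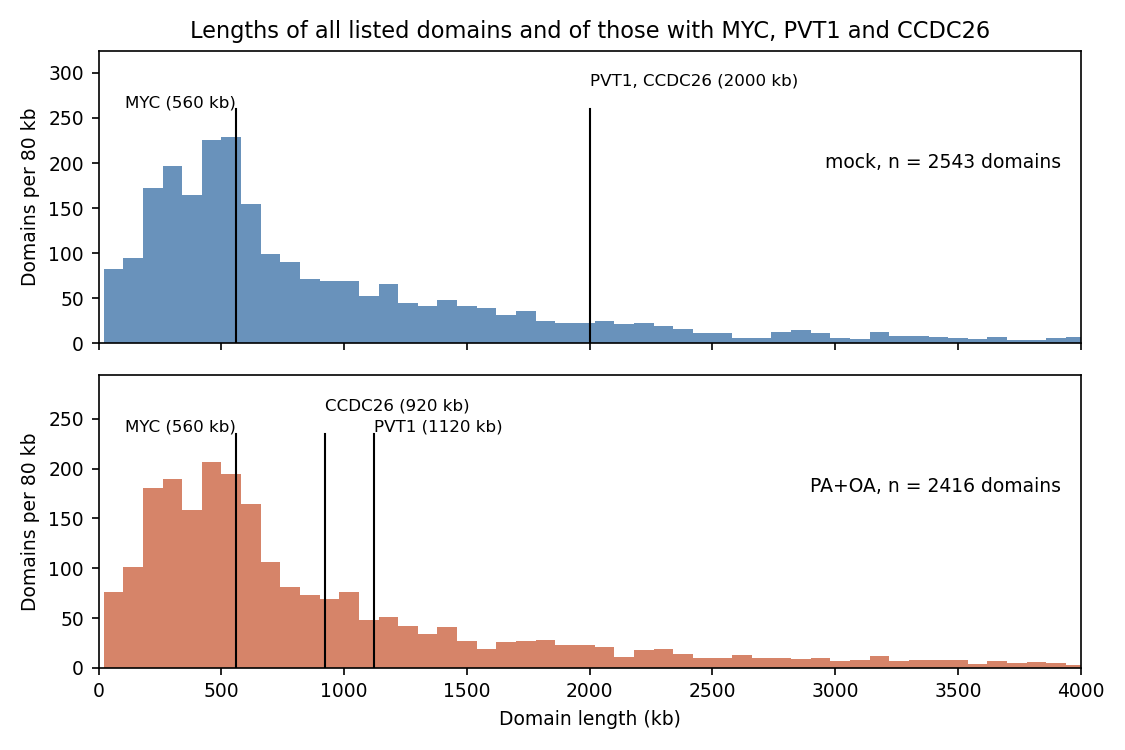
Number of domains by length in classes of 80 kb in the mock library (upper panel) and the PA+OA library (lower panel), with black lines at the domains of MYC, PVT1 and CCDC26. The axis ends at 4000 kb, beyond which lie 99 mock and 109 PA+OA domains that are not drawn. MYC stands at 560 kb in both panels, and PVT1 and CCDC26 share 2000 kb in the mock panel and stand at 1120 and 920 kb in PA+OA.

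Most genes of the MYC network, which lie on other chromosomes, were in domains whose edges differed between the lists, as were most coding genes. MYC works as a dimer with MAX, and the MXD, MNT and MGA proteins compete for MAX, while MLX pairs with the nutrient-responsive factors MLXIP and MLXIPL. Of 12 network genes, 3 lay in a domain with equal edges in both lists, which is 25% against 33.3% of all coding genes. They were MYCL, a MYC relative, in 240 kb on chromosome 1, MNT, a repressor partner of MAX, in 400 kb on chromosome 17, and MLXIPL, which encodes the carbohydrate-responsive factor ChREBP of lipid synthesis, in 280 kb on chromosome 7. The boundary at 73600000 lay inside MLXIPL in both lists. For 5 of the 12 genes the PA+OA domain was longer and for 4 it was shorter, against 36.2% and 29.3% of the 19602 coding genes placed in both lists.

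The relatives of MYC differed among themselves. MYCN, the MYC gene of neural tumours, had a mock domain of 1640 kb, from 15120001 to 16760000 on chromosome 2, and a PA+OA domain of 2640 kb, from 15040001 to 17680000, with neither edge matched within 1 bin. It stood 813 kb from the nearest mock boundary and 901 kb from the nearest PA+OA boundary, whereas MYC stood 17.0 kb and MYCL 95.4 kb from theirs in both lists. MAX, the partner of MYC, lay in 3440 kb in mock and 4560 kb in PA+OA on chromosome 14. MXD1 went from 1680 to 1240 kb and MXI1 from 720 to 480 kb, both by an added PA+OA boundary, as with PVT1. MXD3 went from 360 to 1360 kb, MXD4 from 720 to 1240 kb and MGA, on chromosome 15, from 2480 to 10280 kb. MLX went from 3680 to 3040 kb and MLXIP from 2200 to 840 kb.

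Of 7 genes that act on the MYC protein, on its gene or on domain boundaries, 1 lay in a domain with equal edges (14.3%, against 33.3% of all coding genes). It was RAD21, which encodes a cohesin subunit and lies on chromosome 8 as well, in 440 kb. For 5 of the 7 the PA+OA domain was longer and for 1 it was shorter, against the same 36.2% and 29.3% of coding genes. CTCF, whose protein marks many boundaries, went from 1160 to 2280 kb. FBXW7, a ubiquitin ligase gene for MYC, went from 760 to 1080 kb, and the mock boundary at 152440000 inside it was not listed in PA+OA. USP28, a deubiquitinase gene, went from 880 to 960 kb, ZBTB17, which encodes the MYC partner MIZ1, from 720 to 1120 kb, and TCF7L2, a Wnt effector gene, from 1400 to 2000 kb. CTNNB1, the beta-catenin gene, went the other way, from 2800 to 1000 kb. With 12 and 7 genes, these counts are too few to set either list apart from other genes, and no test was made.

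**Figure D4:**
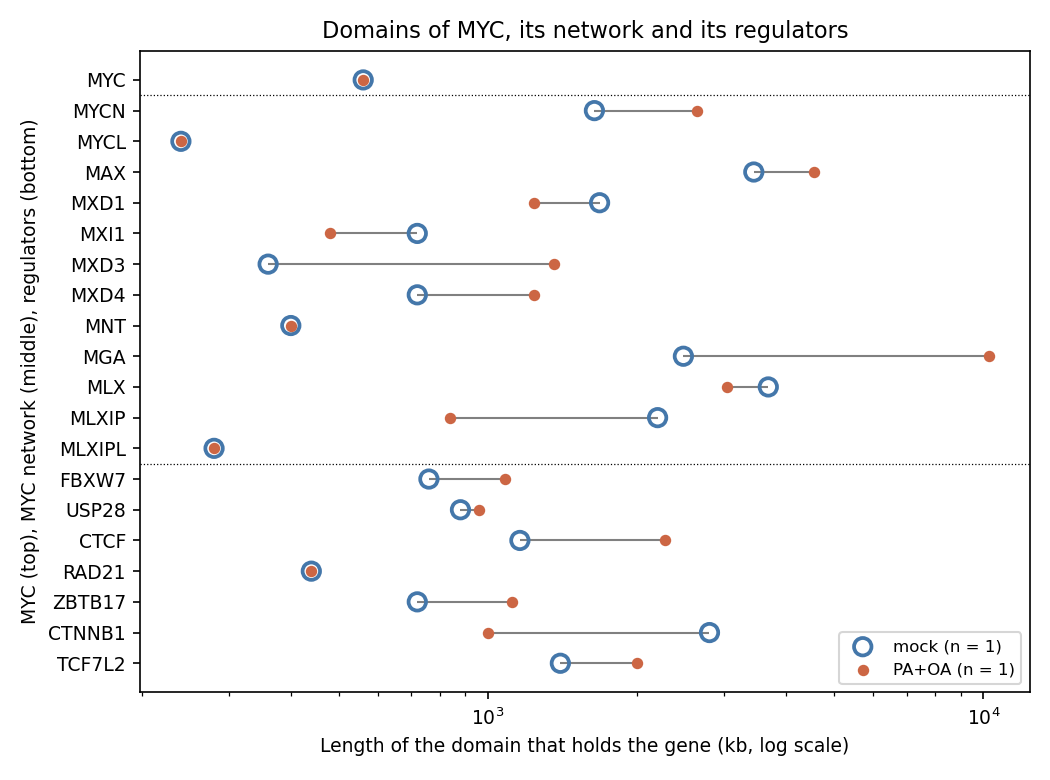
Length in kb, on a log scale, of the domain that holds each gene in the mock library (open blue circles) and the PA+OA library (filled orange points), with grey lines joining the values of a gene. MYC is at the top, 12 network genes are in the middle and 7 regulators are at the bottom. Points lie inside the circles for MYC, MYCL, MNT, MLXIPL and RAD21, whose domains are equal in both lists.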

How the data were processed

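The authors' deposited files are 1 list of domains per library, with chromosome, start and end in base pairs and no score or other value. The build was hg38 and the tools were FastQC and HiC-Pro, per the submitters' processing notes. Domain caller, matrix normalization and depth were not given in the sources used here, and a caller or depth that differed could move or remove boundaries, which was not tested. Starts were raised by 1 base for printing. A boundary is any listed edge. For the shares of matched boundaries, edges of a list within 1 bin (40 kb) were counted once. For gene distances and domain classes every edge was kept. A boundary is shared where the other list has any edge within 1 bin. Genes came from the RefSeq table of GRCh38, the same build as hg38, were placed by the middle of their record, and all 27, 12 and 7 listed symbols matched. Another listed regulator is not reported here. A mock domain is divided where both edges are shared and PA+OA edges lie inside. Neighbouring records were taken in order of start without overlap. Python 3.11.15, pandas 2.3.3 and scipy 1.17.1 were used. Simulated lists served to check boundary counts, sharing, boundaries inside a domain and the classing of domains that stayed whole or were joined. The class of divided domains, the merging of near edges, gene placement, gene pairs, runs and windows were not checked in this way. The values named are MYC and PVT1 in full, then the listed genes of the locus, network and regulators. Members and lists were chosen with earlier results of these data known. With 1 library per group, no test was possible. Alternatives varied the tolerance, the merging of edges, the stretch, the gene position, zero-length entries and the gap of gene pairs.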

Additional observations from a re-analysis of the deposited data

How the results depend on the processing

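No paired analysis was possible because each group has 1 library. The boundary between MYC and PVT1 and the lengths of both domains were the same under every alternative run for them, but none of these could have changed them. Leaving out entries of zero length could not, since the stretch holds none. Placing genes by start or end could not, since each record lay wholly in 1 domain of each list. Counting near edges separately could not, since no other listed edge lay within 1 bin of the boundary. The equal values are therefore no check of stability. The shares of matched boundaries and kept domains rest on 5 to 7 items, and their intervals are too wide to show stability. With no tolerance, 4 of 5 mock and 4 of 6 PA+OA boundaries of the stretch were shared, since the edge near GSDMC differed by 1 bin. The boundary at 128880000 had no mock partner at any tolerance up to 3 bins. None of these tolerances could have given it one, since the nearest mock boundary was 22 bins away. The background shares moved more. Coding genes in kept mock domains, whose edges PA+OA matched and which it did not divide, made up 40.5% with 1 bin of tolerance, and 33.3%, 42.2% and 45.3% with 0, 2 and 3 bins. The share was 44.3% on chromosome 8 alone and 44.7% without the 7 chromosomes whose mean domain exceeds 2 Mb in at least 1 list. Neighbouring pairs with a boundary of both lists between them made up 1.34% with a gap of at most 100 kb, 1.05% with at most 50 kb, 1.57% with at most 200 kb and 2.08% among protein-coding records alone. It was 3.41% for gaps of 40 to 60 kb, a choice made after seeing the data, as were the pairs of a coding and a noncoding gene and the windows shifted by 2 Mb, of which 37.4% had all mock boundaries matched. The depth is unknown, so the absence of the boundary at 128880000 from the mock list cannot be told apart from a boundary missed there.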

Other observations

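MYC was 1 of 151 protein-coding genes (0.756% of 19974) that lay in a domain with equal edges in both lists and within 1 bin of an edge whose other side was a mock domain divided in PA+OA, a pattern looked for after the domains of MYC and PVT1 had been seen. In 123 of the 151 a single PA+OA boundary divided the neighbouring domain, as it did that of PVT1. On chromosome 8 there were 4 such genes. DECR1, which encodes a dienoyl-CoA reductase of mitochondrial fatty acid oxidation, lay in 520 kb beside a divided domain of 4000 kb. SLC30A8, a zinc transporter gene of pancreatic beta cells, lay in 440 kb beside 1040 kb, and CLN8, a gene of an endoplasmic reticulum membrane protein, lay in 520 kb beside 1280 kb.

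The domain list differed on the far side of the run of equal boundaries as well. Before 124480000, the mock list held a domain of 1240 kb from 123240001, and the PA+OA list held a domain of 3200 kb from 121280001, so the mock boundary at 123240000 had no PA+OA partner. The mock domain held 11 coding genes, among them ATAD2, a bromodomain gene, and all of them also lay in the PA+OA domain. The PA+OA domain held 17 coding genes. Those in it but not in the mock domain included ZHX2, a gene that restrains alpha-fetoprotein expression in the adult liver. DERL1, a gene of protein removal from the endoplasmic reticulum, was another.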
